A study of Mus musculus with 12 samples.

Results

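The mitochondrially encoded genes were taken as every gene that the count tables place on the mitochondrial chromosome, and they numbered 13 of the 25556 genes in the joined tables. All 13 code for proteins. They are the complex I subunits mt-Nd1, mt-Nd2, mt-Nd3, mt-Nd4, mt-Nd4l, mt-Nd5 and mt-Nd6, cytochrome b of complex III (mt-Cytb), the complex IV subunits mt-Co1, mt-Co2 and mt-Co3, and the ATP synthase subunits mt-Atp6 and mt-Atp8. Mitochondrial rRNA and tRNA genes, with 0 rows of either kind in the tables used, were not analysed here. RNA sequencing was done on brain tissue of male C57BL6 mice. The mice were given THC, the principal intoxicating cannabinoid of the cannabis plant, in a dose of 5 mg/kg, or Tween-80 vehicle alone, daily from postnatal day 30 to 44. On day 70 they received either LPS, the bacterial endotoxin used to set off an innate immune response, in a dose of 0.33 mg/kg, or saline, and brain was collected 24 h afterwards. The 4 groups of 3 libraries are called Veh_Ctrl (vehicle, then saline), THC_Ctrl (THC, then saline), Veh_LPS (vehicle, then LPS) and THC_LPS (THC, then LPS), and injections were common to all of them. Separate mice are not named for the 3 libraries of a group, so the spread behind each p-value is that between libraries and could be technical.

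The mammalian mitochondrial genome is transcribed as long precursors from both strands, which are cut into mRNAs, rRNAs and tRNAs largely at the tRNAs that separate the genes. Most of its mRNAs come from the heavy-strand precursor, while mt-Nd6 is read from the opposite strand. The resulting proteins are core subunits of the respiratory chain and of ATP synthase, and they assemble with subunits encoded in the nucleus. The brain draws most of its ATP from this chain. Steady levels differ between mRNAs of the same precursor because they are cut, polyadenylated and degraded at different rates. mt-Atp8 with mt-Atp6, and mt-Nd4l with mt-Nd4, are known to share an mRNA.

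Gene counts summed to between 16730639 and 44683151 reads per library. Libraries stood apart in ways that touch these genes. In THC_LPS replicate 3, nuclear gene levels relative to the other libraries had a Spearman correlation of -0.784 with GC content, against -0.13 to 0.29 in the other 11, and the mitochondrial genes have 31.9 to 41.1% GC. With gene length, the lowest correlation was -0.36 (Veh_LPS replicate 1) and the highest 0.33 (THC_LPS replicate 2). Markers of brain neurons summed to between 4297 and 5405 CPM (counts per 1e6 reads) in Veh_Ctrl and 3996 and 4294 in Veh_LPS. In THC_Ctrl they summed to between 4418 and 4544 CPM and in THC_LPS to between 4080 and 4964. Microglial markers summed to between 188 and 201 CPM in Veh_Ctrl and 209 and 253 in Veh_LPS. In THC_Ctrl these were 184 to 227 CPM and in THC_LPS 211 to 236. For both lists the vehicle groups did not overlap. By edgeR, 1 of 6 and 2 of 5 markers passed an unadjusted p under 0.05 there (7.46% of all genes). Sums of astrocyte markers (2165 to 2534 CPM) and oligodendrocyte markers (4204 to 5871 CPM) overlapped between saline and LPS after both pretreatments. After vehicle, 3 of 5 astrocyte and 0 of 5 oligodendrocyte markers passed that unadjusted p. The part of these lists in the LPS values was not tested. The 6 pituitary markers summed to 4156 CPM in Veh_LPS replicate 2 and to 15.5 CPM or less elsewhere. The 5 erythrocyte markers summed to between 191 and 344 CPM in Veh_Ctrl, 266 and 393 in THC_Ctrl, 72.3 and 356 in Veh_LPS, and 111 and 187 in THC_LPS. They did not overlap between THC_Ctrl and THC_LPS (median log2 fold change -0.92, 0 of 5 positive). The share of all genes lower without overlap is not given here. By edgeR 2 of the 5 passed an unadjusted p under 0.05, where 19.4% of all genes did, and 0 were called, where 0.11% of all genes were. Their part in that comparison was not tested. In bulk tissue, fewer cells of a type and less RNA per cell cannot be told apart.

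Several of these genes have near-identical copies in the nuclear genome, and their levels cannot be read without them. The closest set lies on chromosome 1, where 7 annotated unprocessed pseudogenes sit side by side on the minus strand at chr1:24611535-24616197 (mm10). Alignment of GENCODE M21 gene sequences found 681 of 681 aligned bases identical between mt-Co2 and Gm28661, 678 of 678 between mt-Atp6 and Gm10925, and 783 of 783 between mt-Co3 and Gm28437. mt-Nd4l and Gm10222 were identical over 294 bases, and mt-Nd4 and Gm28439 over 876 of the 1378 bases of mt-Nd4. mt-Nd3 and Gm28438 shared 344 of 345 bases and differed by T3C. mt-Co1 and Gm29216 shared 482 of 483 bases, out of 1545 in mt-Co1, and differed by A1066T. Positions count from 1 at the first base of the mitochondrial gene, whose base comes first. The other members are less closely matched: the best annotated pseudogene found for mt-Cytb, Gm11410 on chromosome 4, was 92.9% identical over 1142 bases. For mt-Nd1 none was found over 40 bases at 90% identity. Hits on a single nuclear chromosome were not kept, so this absence holds for the others only.

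The first 60 bases of mt-Co2 (chrMT:7013-7072, plus strand) and of its copy Gm28661 (chr1:24615506-24615565, minus strand) show what a read has to tell apart where there is no difference. The first 33 bases of mt-Nd3 (chrMT:9459-9491) and Gm28438 (chr1:24613087-24613119, minus strand) hold the single base that separates that pair, in capitals. Bases 61 to 120 of mt-Cytb (chrMT:14205-14264) and Gm11410 (chr4:80004049-80004108, plus strand) differ at 5 positions, in capitals, which are C61T, T66C, C78T, T108C and G115A. The sequences are from GENCODE M21 (mm10), 5′ to 3′.
mt-Co2: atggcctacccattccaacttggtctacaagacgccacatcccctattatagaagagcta
Gm28661: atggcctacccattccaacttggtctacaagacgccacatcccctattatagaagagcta
mt-Nd3: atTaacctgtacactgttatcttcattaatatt
Gm28438: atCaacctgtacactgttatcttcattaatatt
mt-Cytb: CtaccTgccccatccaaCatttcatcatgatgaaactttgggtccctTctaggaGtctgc
Gm11410: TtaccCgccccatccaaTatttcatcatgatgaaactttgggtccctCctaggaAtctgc

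In level per length, the genes fell into a high and a low tier, and their order was the same in all 12 libraries. mt-Co1 (chrMT:5328-6872), the catalytic subunit of cytochrome c oxidase, had the highest level, with a mean of 16176 RPKM (reads per kilobase of gene and per 1e6 reads of the library) over the 12 libraries. mt-Nd1 (chrMT:2751-3707), a membrane subunit of complex I, followed at 9627 RPKM and mt-Cytb (chrMT:14145-15288) at 7335 RPKM. mt-Nd2 (chrMT:3914-4951) had a mean of 4578 RPKM, mt-Nd4 (chrMT:10167-11544) of 3547 RPKM and mt-Nd5 (chrMT:11742-13565) of 1988 RPKM, all of them membrane subunits of complex I. mt-Nd6 (chrMT:13552-14070, minus strand) closed the high tier at 1467 RPKM. Each gene was above the next one in 12 of 12 libraries.

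The low tier began at 151 RPKM with mt-Co3 (chrMT:8607-9390) and went on with mt-Co2 (chrMT:7013-7696), the subunit that takes electrons from cytochrome c, at 104 RPKM. mt-Atp6 (chrMT:7927-8607), which forms part of the proton path of ATP synthase, had 62.0 RPKM, mt-Nd4l (chrMT:9877-10173) 16.1 RPKM and mt-Nd3 (chrMT:9459-9806) 8.52 RPKM. mt-Atp8 (chrMT:7766-7969) closed the order at 0.149 RPKM. The 7 genes of the high tier held 99.5 to 99.6% of all mitochondrial reads. The 6 genes of the low tier held 0.363 to 0.536%, and 5 of them are the genes with a chromosome 1 copy identical, or 1 base from identical, over almost their whole length. Complex IV subunits together took 42.6 to 47.0% of mitochondrial reads, complex I subunits 38.6 to 41.9%, mt-Cytb 12.01 to 16.2% and the ATP synthase subunits 0.0666 to 0.0858%.

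**Figure D1:**
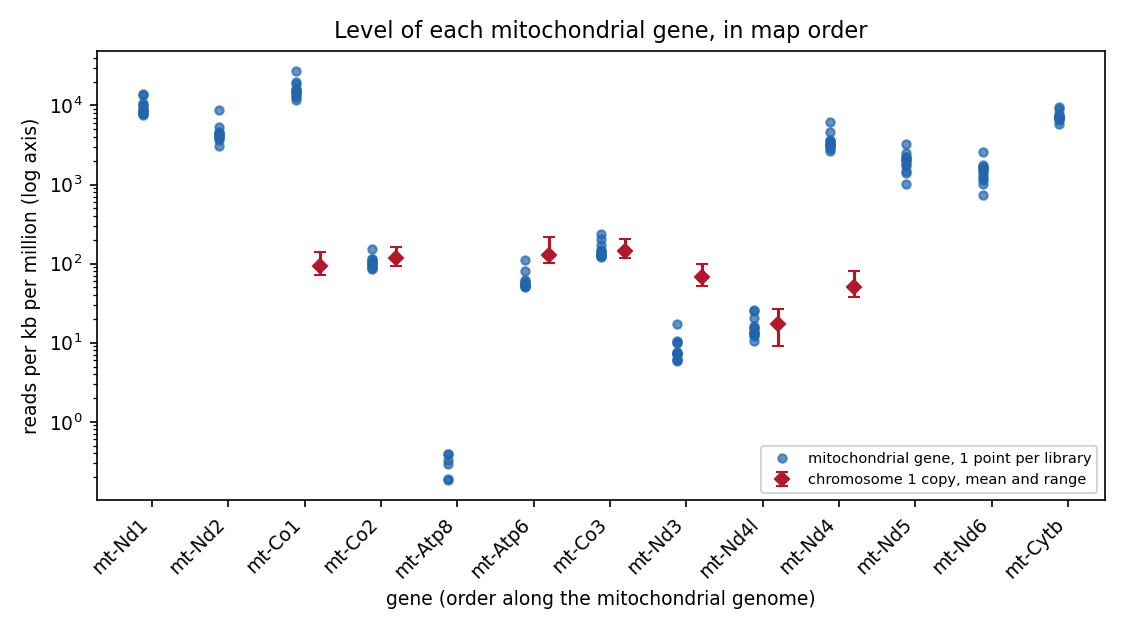
RPKM of the 13 mitochondrial genes (blue, 1 point per library, 12 libraries, log axis) in order along the mitochondrial genome, with the mean and range of the chromosome 1 copy where there is one (red). mt-Co2, mt-Atp6, mt-Co3, mt-Nd3 and mt-Nd4l lie close to or below the level of their copy, and libraries with 0 reads of mt-Atp8 are not drawn.

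Read counts of the low tier lay close to or below those of the copies. mt-Co2 had 21657 reads over all libraries and Gm28661 had 24160, a median ratio of 0.903 with a range of 0.791 to 0.959. mt-Co3 had 35722 reads against 34385 of Gm28437, a median ratio of 1.02 (0.968 to 1.25). mt-Nd4l had 1453 against 1547 of Gm10222, a median ratio of 0.949 (0.680 to 1.44). mt-Atp6 had fewer reads than its copy, 12680 against 26684, a median ratio of 0.476 (0.438 to 0.520). mt-Nd3 had 891 against 7211, a median ratio of 0.116 (0.0900 to 0.187). The members with a partial chromosome 1 copy lay far above it, with median ratios of 113 for mt-Nd4 and 558 for mt-Co1. Less similar full-length pseudogenes lie elsewhere. Gm13340 on chromosome 2 was 97.6% identical to mt-Co1 and had 3581 reads over all libraries. Gm13341 on chromosome 2 was 95.9% identical to mt-Co2 (1423 reads), and Gm11408 on chromosome 4 was 93.6% identical to mt-Nd6 (4 reads). How reads that map to several places were counted is not given in the sources used here, so shared reads may have been split or dropped, and the levels of these members are uncertain. All 7 chromosome 1 copies together held 0.0329 to 0.0572% of a library's reads. The part of such counting in the levels was not tested.

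mt-Atp8 is a special case among the 13. It is a short accessory subunit of ATP synthase. Its last 43 bases, in capitals, are also the first 43 bases of mt-Atp6 (chrMT:7927-7969) and of Gm10925. The bases before them matched no annotated pseudogene among the hits kept.
mt-Atp8: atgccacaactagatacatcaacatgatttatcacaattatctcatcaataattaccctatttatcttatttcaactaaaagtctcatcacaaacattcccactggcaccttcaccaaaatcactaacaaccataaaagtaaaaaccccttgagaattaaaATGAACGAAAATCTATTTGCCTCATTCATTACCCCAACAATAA
It had 10 reads over all 12 libraries. Veh_LPS replicate 3 had 3, Veh_Ctrl replicate 2 and THC_Ctrl replicate 2 had 2 each, and Veh_Ctrl replicate 1, Veh_LPS replicate 1 and THC_LPS replicate 1 had 1 each. The other 6 libraries had 0, which allows a level of up to 0.116 to 0.148 CPM at a limit of 3 counts, for counting error only. mt-Atp8 therefore did not pass the expression filter, and 12 of the 13 genes were tested among 17208.

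Together the 13 genes held 4.67, 4.11 and 5.11% of the reads in the Veh_Ctrl libraries (replicates 1 to 3). THC_Ctrl libraries had 5.73, 5.47 and 6.12%. Veh_LPS libraries had 7.11, 5.18 and 4.85%. THC_LPS libraries had 5.24, 5.54 and 9.11%, the last being the library with the GC trend. Saline libraries thus lay tightly by pretreatment, THC above vehicle, while each LPS group held a single high library. The means were 4.63 ± 0.50% for Veh_Ctrl, 5.77 ± 0.325% for THC_Ctrl, 5.71 ± 1.22% for Veh_LPS and 6.63 ± 2.16% for THC_LPS (SD, n = 3 each).

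**Figure D2:**
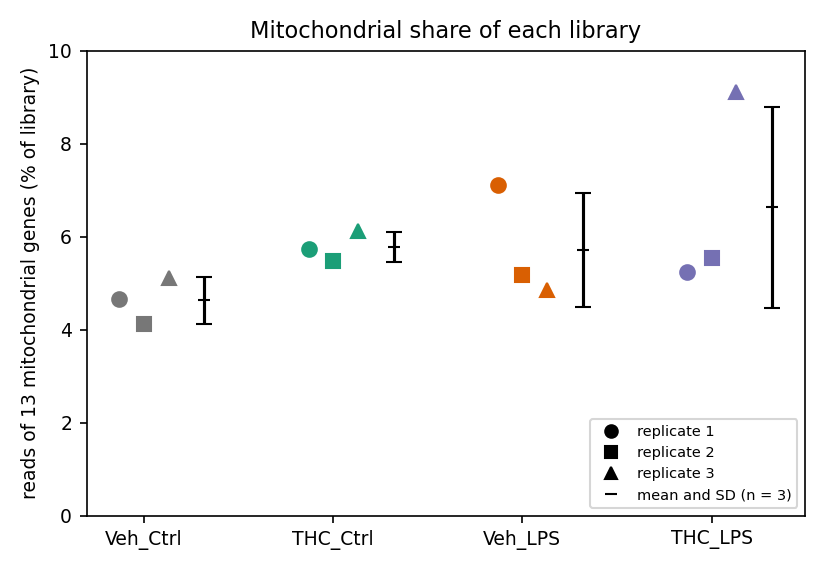
Share of each library's reads on the 13 mitochondrial genes, in percent, by group, with 1 point per library and the mean and SD of 3 libraries in black. The THC_Ctrl libraries (5.47 to 6.12%) all lie above the Veh_Ctrl libraries (4.11 to 5.11%), and the highest values of the LPS groups are 7.11% in Veh_LPS replicate 1 and 9.11% in THC_LPS replicate 3.

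Whether LPS moved the mitochondrial share was asked within each pretreatment. After vehicle the LPS mean was 1.08 percentage points higher (exact 2-sided permutation test, p = 0.2; 3 against 3 libraries cannot go below 0.1), and without Veh_LPS replicate 1 the difference was 0.386 points (exact p = 0.4). After THC it was 0.856 points higher (exact p = 0.9), and without THC_LPS replicate 3 the sign turned, to -0.386 points (exact p = 0.3). Averaged over both pretreatments the difference was 0.970 points (exact permutation within pretreatment, p = 0.26, smallest possible 0.005), and 0.349 points without THC_LPS replicate 3. By these tests none of the differences exceeded the spread between replicates.

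The effect of adolescent THC was asked in the same way. In saline animals the share was 1.14 points, or 1.25-fold, higher after THC, with no overlap between the groups, and the exact p of 0.1 is the smallest this design can give. In LPS animals it was 0.917 points higher (exact p = 0.5), and -0.325 points without THC_LPS replicate 3. Averaged over saline and LPS it was 1.03 points higher (exact p = 0.18), 0.409 points without THC_LPS replicate 3 and 1.38 points without Veh_LPS replicate 1 (exact p = 0.05). The difference between the 2 LPS differences was -0.227 points, and it turned positive without any of Veh_Ctrl replicate 2, Veh_LPS replicate 1 or either of THC_LPS replicates 1 and 2.

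Gene by gene, none of the 12 tested genes was called in any comparison by edgeR's quasi-likelihood test at an adjusted p under 0.05 (Benjamini-Hochberg over 17208 genes). Of all tested genes, 0.622% were called for Veh_LPS against Veh_Ctrl, 0.11% for THC_LPS against THC_Ctrl and 1.52% for LPS averaged over pretreatments. No gene at all, 0%, was called for THC_Ctrl against Veh_Ctrl, for THC_LPS against Veh_LPS, for the interaction of the treatments or for THC averaged over saline and LPS. At an unadjusted p under 0.05, 2 of the 12 passed for Veh_LPS against Veh_Ctrl, where 7.46% of all genes did, and 2 for THC_LPS against THC_Ctrl, where 19.4% did. For LPS averaged 3 passed, against 18.6% of all genes, and for THC averaged 2 passed, against 6.1%. None passed for THC_Ctrl against Veh_Ctrl (3.62% of all genes), THC_LPS against Veh_LPS (10.3%) or the interaction (6.78%). DESeq2 called 2 members for LPS averaged, where it called 4.17% of all genes. Voom with sample weights called 2 for Veh_LPS against Veh_Ctrl (10.8% of all genes) and 2 for LPS averaged (23.7%). Neither tool called any in the other comparisons. These comparisons share samples and are not independent of each other.

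After vehicle, all 12 tested genes had a positive log2 fold change under LPS by edgeR, with a median of 0.24 (-0.036 over all genes). By voom with sample weights 9 were positive and the median was 0.12 (-0.047 over all genes). The largest edgeR values were those of mt-Nd6 and mt-Nd5. CPM values here are edgeR values after TMM scaling. mt-Nd6, a complex I subunit and the gene read from the light strand, had 553, 397 and 638 CPM in Veh_Ctrl and 845, 848 and 725 CPM in Veh_LPS. Every Veh_LPS library was above every Veh_Ctrl library. The log2 fold change was 0.61 ± 0.20 (± is the SE throughout, n = 3 per group), with an unadjusted p of 0.00897 and an edgeR adjusted p of 0.398. mt-Nd5, the large complex I subunit at the end of the proton-pumping arm, had 2666, 1907 and 3171 CPM in Veh_Ctrl and 3798, 4020 and 3230 CPM in Veh_LPS. These groups also did not overlap, and the log2 fold change was 0.51 ± 0.20 with an edgeR adjusted p of 0.551. Voom with sample weights, which called 10.8% of all genes here, gave adjusted p-values of 0.00807 for mt-Nd6 and 0.0193 for mt-Nd5. Without Veh_Ctrl replicate 2, the lowest library, the edgeR values were 0.43 and 0.33.

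A further gene, mt-Nd4l, had groups that did not overlap, with 3.85, 3.27 and 3.61 CPM in Veh_Ctrl and 6.10, 4.70 and 4.38 CPM in Veh_LPS. Its log2 fold change was 0.49 ± 0.29 (edgeR adjusted p = 0.757), and its counts are uncertain because of Gm10222. In all, 3 of 12 genes were higher without overlap, where 6.96% of all genes were. The rest had values between 0.06 ± 0.35 for mt-Nd3 and 0.31 ± 0.22 for mt-Nd4. For mt-Co1 the Veh_Ctrl libraries had 20620, 18439 and 22491 CPM and the Veh_LPS libraries 31281, 21516 and 19978 CPM, so that 1 library of the 3 was high. Without that library, Veh_LPS replicate 1, the median over the 12 genes was 0.02 and 7 were positive.

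After THC, the log2 fold changes under LPS were mixed in sign, with 9 of 12 positive and a median of 0.23 (-0.0085 over all genes). mt-Nd6 had 858, 597 and 671 CPM in THC_Ctrl and 779, 885 and 1305 CPM in THC_LPS, which overlap, and 0.48 ± 0.20 on the log2 scale (adjusted p = 0.219 by edgeR). mt-Nd5 had 4021, 2792 and 3540 CPM in THC_Ctrl and 3843, 4490 and 5878 CPM in THC_LPS, which overlap as well, and 0.46 ± 0.20 on the log2 scale (adjusted p = 0.227 by edgeR). mt-Co2 had the lowest value, -0.22 ± 0.18, with 72.1, 79.7 and 73.3 CPM against 58.1, 58.9 and 76.8 CPM. The authors' deposited table gives adjusted p-values under a header that names no comparison. They rank genes as a DESeq2 fit of THC_LPS against THC_Ctrl does (Spearman 1.00 over 16921 genes), and 60.9% lie within 0.01 of that fit. Those of the 12 genes lie between 0.287 and 0.980. No gene of the 12 was higher without overlap, where 9.83% of all genes were. THC_LPS replicate 3 was the highest library for each of the 6 genes plotted except mt-Co2. Without it the median was -0.11 with 3 of 12 positive, and with each library's GC trend removed it was -0.13, again with 3 positive. mt-Nd6 was at 0.27 without that library and 0.15 with the GC trend removed, and mt-Nd5 at 0.30 and 0.13. By voom with sample weights, with all libraries kept, the median was -0.12 with 3 of 12 positive.

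**Figure D3:**
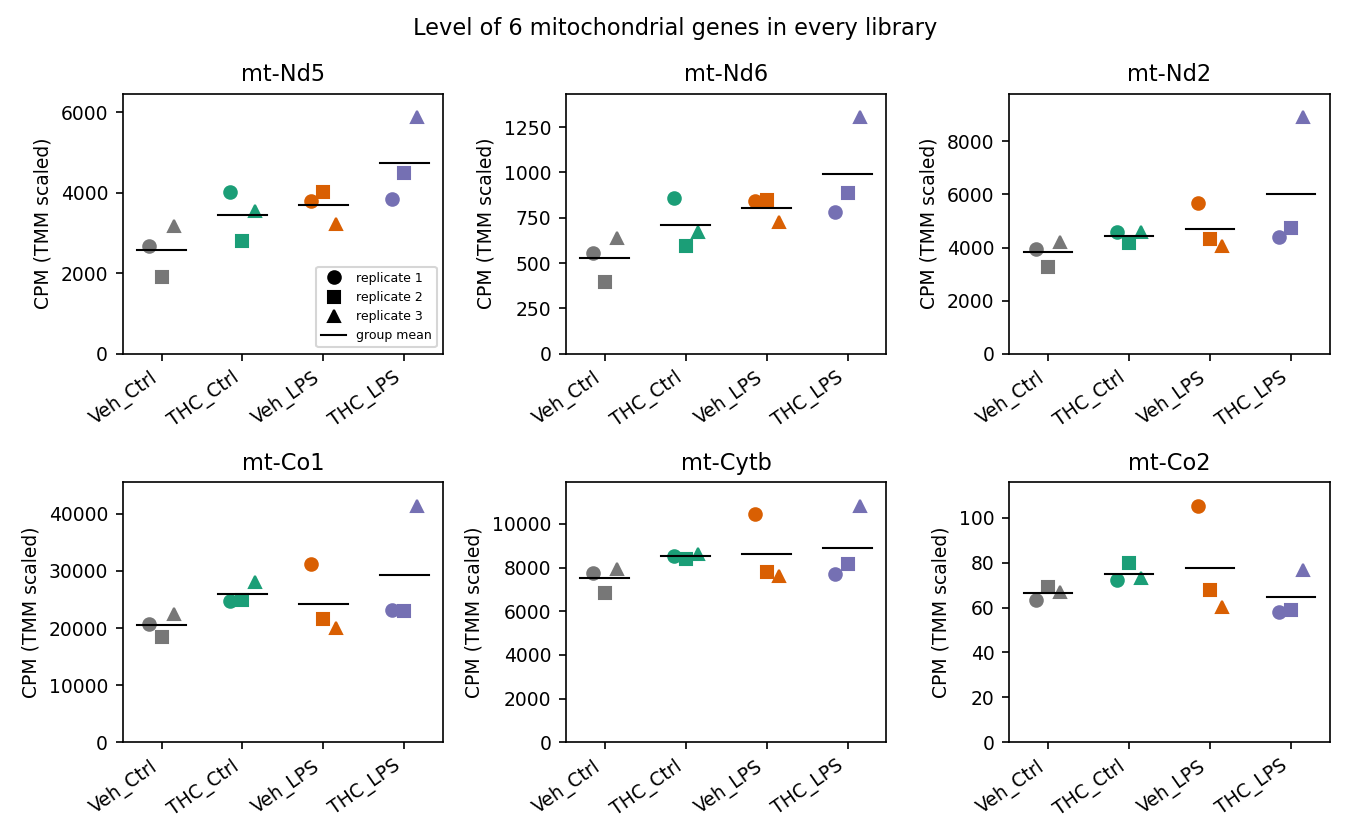
CPM after TMM scaling of 6 mitochondrial genes in each of the 12 libraries, by group, with replicates marked by shape and the group mean as a line. mt-Nd5 and mt-Nd6 are higher in every Veh_LPS library than in every Veh_Ctrl library, while for mt-Co1, mt-Cytb and mt-Co2 the high Veh_LPS value comes from replicate 1.

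Over both pretreatments, mt-Nd6 had a log2 fold change under LPS of 0.54 ± 0.14 with an unadjusted p of 0.00166 and an edgeR adjusted p of 0.0748. mt-Nd5 had 0.48 ± 0.14 (adjusted p = 0.103) and mt-Nd2, another complex I subunit, 0.37 ± 0.16 (adjusted p = 0.226). The 9 others lay between 0.01 ± 0.12 for mt-Co2 and 0.30 ± 0.16 for mt-Nd4. DESeq2, which called 4.17% of all genes, gave adjusted p-values of 0.00748 for mt-Nd6 and 0.0176 for mt-Nd5. Voom with sample weights, which called 23.7% of all genes, gave 0.00329 and 0.00629. The call for both genes thus depends on the tool. So does the median over the 12 genes, 0.21 by edgeR (12 positive) and -0.003 by voom (6 positive). With the GC trend removed mt-Nd6 stood at 0.39 and was called by edgeR (adjusted p = 0.0345), while mt-Nd5 stood at 0.33 (adjusted p = 0.0841) and mt-Nd2 at 0.18 and were not. That setting called 961 of 17208 genes, where the main fit called 261 (1.52%). mt-Nd2 had 0.20 without THC_LPS replicate 3 and 0.15 by voom. With the gene length trend removed, an alternative chosen after seeing the data, mt-Nd6 stood at 0.55 and was not called (adjusted p = 0.0873).

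mt-Nd5 and mt-Nd6 are neighbours on opposite strands and overlap by 14 bases, and whether reads were counted by strand is not given in the sources used here. Their counts moved together, with 0.190 to 0.224 mt-Nd6 reads per mt-Nd5 read over the 12 libraries. Unless reads were counted by strand, which is not known here, those from the strand opposite to mt-Nd6 cannot be told apart from its own.

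The balance between mitochondrial genes varied from library to library. mt-Nd5 reads per mt-Nd1 read were 0.310, 0.248 and 0.369 in Veh_Ctrl and 0.289, 0.519 and 0.454 in Veh_LPS. They were 0.426, 0.269 and 0.377 in THC_Ctrl and 0.503, 0.572 and 0.451 in THC_LPS. The THC_LPS libraries were thus all above the THC_Ctrl libraries, while the vehicle groups overlapped because of Veh_LPS replicate 1. These ratios were chosen after their values were seen and are given with no test. The lowest 3 ratios belonged to Veh_Ctrl replicate 2, THC_Ctrl replicate 2 and Veh_LPS replicate 1, the libraries whose nuclear genes had the most negative correlations with length (-0.25, -0.29 and -0.36). The highest belonged to THC_LPS replicate 2, with a length correlation of 0.33. Other libraries did not keep to that order. THC_Ctrl replicate 3, with the next most negative correlation (-0.21), had a middle ratio of 0.377. Veh_LPS replicate 2 and THC_Ctrl replicate 1 both had a correlation of 0.15, with ratios of 0.519 and 0.426. The part of the length trend in the mt-Nd5 and mt-Nd6 differences was not tested beyond the fit with the trend removed, where mt-Nd5 had 0.52 and mt-Nd6 0.55 for LPS averaged.

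**Figure D4:**
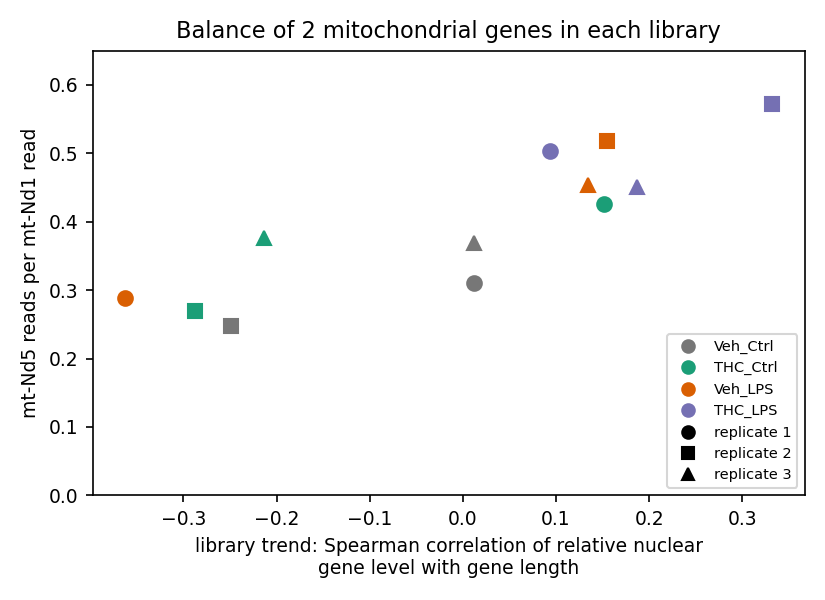
mt-Nd5 reads per mt-Nd1 read (vertical axis) against each library's Spearman correlation of relative nuclear gene level with gene length (horizontal axis), with 1 point per library, colour for the group and shape for the replicate. The lowest ratio is 0.248 in Veh_Ctrl replicate 2 and the highest 0.572 in THC_LPS replicate 2.

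For a further pair of ratios the THC groups did not overlap, while the vehicle groups did. They too were chosen after their values were seen and have no test, and mt-Co2 counts are uncertain because of Gm28661. mt-Nd2 reads per mt-Nd1 read were 0.486, 0.401 and 0.489 in THC_Ctrl and 0.575, 0.604 and 0.683 in THC_LPS. In the vehicle groups they were 0.461, 0.427 and 0.490 in Veh_Ctrl and 0.432, 0.558 and 0.572 in Veh_LPS. mt-Co2 reads were 0.292, 0.321 and 0.261% of mt-Co1 reads in THC_Ctrl and 0.251, 0.255 and 0.185% in THC_LPS. In the vehicle groups they were 0.307, 0.374 and 0.297% in Veh_Ctrl and 0.337, 0.315 and 0.301% in Veh_LPS. THC_LPS replicate 3, the library with the GC trend, was at the extreme of both. The ratio of mt-Cytb to mt-Co1, from 0.308 to 0.344 in THC_Ctrl and from 0.262 to 0.355 in THC_LPS, overlapped.

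Adolescent THC without LPS gave a comparison that holds neither of the 2 libraries of highest share. All 12 tested genes had a positive log2 fold change in THC_Ctrl against Veh_Ctrl, with a median of 0.22 (-0.012 over all genes) and a range from 0.01 ± 0.36 for mt-Nd3 to 0.59 ± 0.29 for mt-Nd4l. The mt-Nd4l value rested on THC_Ctrl replicate 2 (4.49, 7.79 and 3.84 CPM in THC_Ctrl against 3.85, 3.27 and 3.61 in Veh_Ctrl) and was 0.22 without it. The groups did not overlap for 6 of the 12, mt-Nd1, mt-Co1, mt-Co2, mt-Atp6, mt-Nd4 and mt-Cytb, where 5.96% of all genes were higher without overlap. The members come from shared precursors and are not independent of each other. mt-Co1 had 24715, 24856 and 28070 CPM in THC_Ctrl against 20620, 18439 and 22491 CPM in Veh_Ctrl, a log2 fold change of 0.34 ± 0.22. mt-Cytb had 8508, 8409 and 8632 CPM against 7733, 6831 and 7950 CPM, a log2 fold change of 0.18 ± 0.16. Every edgeR adjusted p rounded to 1.00, and the smallest unadjusted p was 0.0503, for mt-Nd5 at 0.42 ± 0.20, which was 0.24 without Veh_Ctrl replicate 2.

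Under LPS, THC_LPS against Veh_LPS gave positive log2 fold changes for 11 of 12 genes, with a median of 0.23 (-0.0034 over all genes) and values from -0.27 ± 0.18 for mt-Co2 to 0.36 ± 0.20 for mt-Nd5. No gene of the 12 was higher without overlap, where 5.61% of all genes were, and the smallest edgeR adjusted p was 0.491. Without THC_LPS replicate 3 the median was -0.15, 2 of 12 were positive, and mt-Nd5 was at 0.19 and mt-Co2 at -0.39. The interaction, the LPS change after THC minus that after vehicle, had a median of -0.09 (3 of 12 positive) and values from -0.57 ± 0.41 for mt-Nd4l to 0.29 ± 0.50 for mt-Nd3. Those were -0.21 for mt-Nd4l without THC_Ctrl replicate 2 and -0.31 for mt-Nd3 without THC_LPS replicate 3. Its smallest adjusted p was 0.710, and its median was -0.38 without THC_LPS replicate 3 and 0.14 without Veh_LPS replicate 1. THC averaged over saline and LPS had a median of 0.22 with 11 of 12 positive, and 0.39 ± 0.14 for mt-Nd5 and 0.36 ± 0.14 for mt-Nd6 (edgeR adjusted p = 0.776 for each). Without THC_LPS replicate 3 the median was 0.06 with 7 of 12 positive, and with the GC trend removed it was 0.02 with 6 positive. mt-Nd5 was then at 0.31 and 0.23, and mt-Nd6 at 0.24 and 0.16. By voom with sample weights the median was 0.01 for THC_LPS against Veh_LPS, with 7 of 12 positive. It was -0.25 for the interaction (1 positive) and 0.11 for THC averaged (10 positive). With the chromosome 1 copies added to the members, edgeR gave medians of 0.11 (8 positive), -0.11 (1 positive) and 0.19 (10 positive) in the same order.

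**Figure D5:**
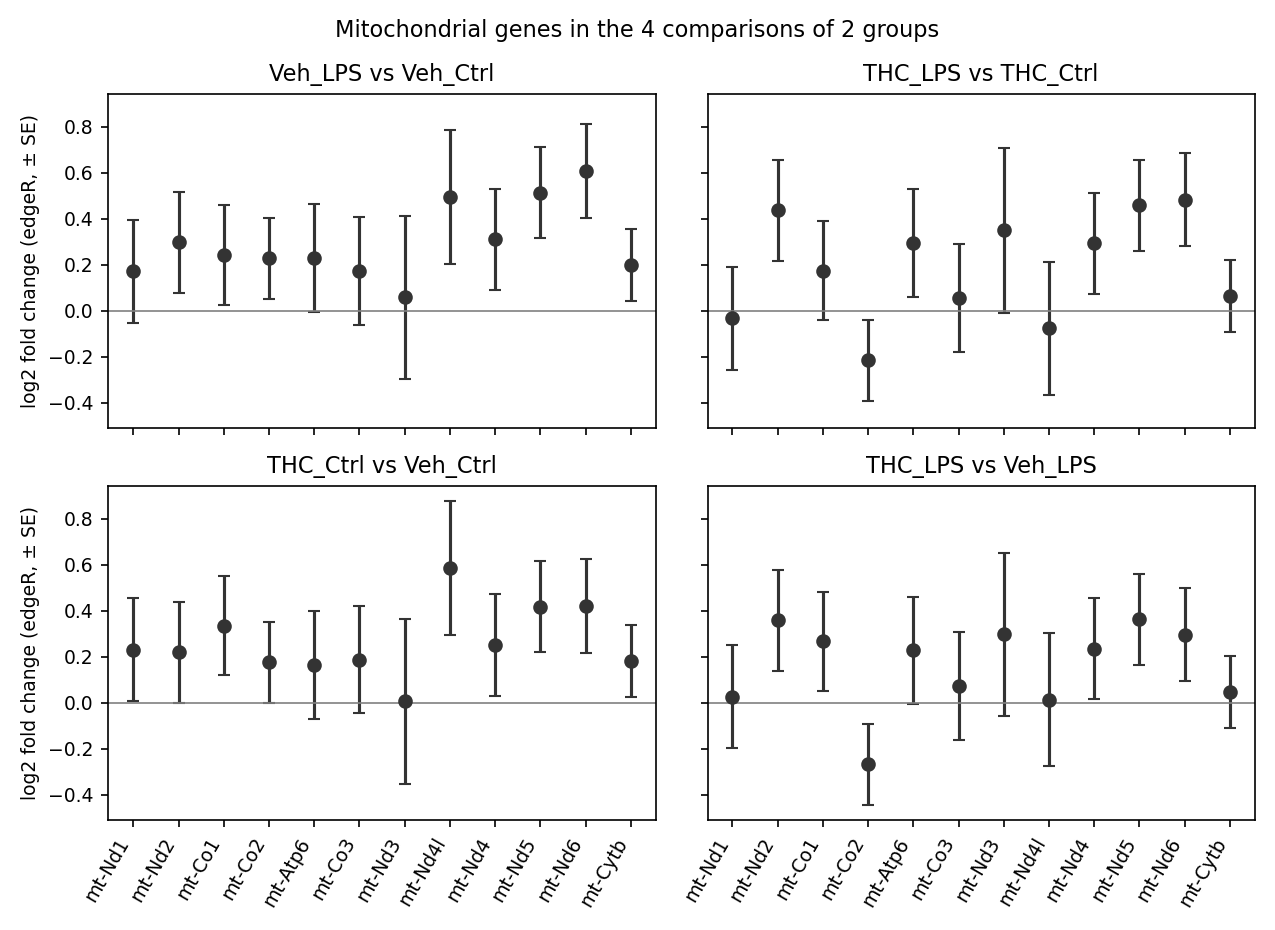
Log2 fold change from edgeR with its SE for the 12 tested mitochondrial genes, in order along the mitochondrial genome, in the 4 comparisons of 2 groups (n = 3 per group). After vehicle and in THC_Ctrl against Veh_Ctrl all 12 points are positive, and mt-Nd5 and mt-Nd6 stand highest under LPS after vehicle at 0.51 and 0.61.

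The nuclear genes that act with the mitochondrial genome were taken as 6 lists with 230 entries, all matched and all tested, and 0 of their 229 genes were called by edgeR in any of the 7 comparisons. At an unadjusted p under 0.05, 3 of them passed for Veh_LPS against Veh_Ctrl (7.46% of all genes), 81 for THC_LPS against THC_Ctrl (19.4%), 1 for THC_Ctrl against Veh_Ctrl (3.62%) and 33 for THC_LPS against Veh_LPS (10.3%). Another 9 passed for the interaction (6.78%), 69 for LPS averaged (18.6%) and 6 for THC averaged (6.1%). DESeq2 called 10 for THC_LPS against THC_Ctrl, where it called 3.2% of all genes, 3 for LPS averaged (4.17%) and none in the others. Voom with sample weights called 7 for Veh_LPS against Veh_Ctrl (10.8% of all genes), 37 for THC_LPS against THC_Ctrl (5.75%), 98 for LPS averaged (23.7%), 1 for THC_Ctrl against Veh_Ctrl (0.622%) and none in the others. Polrmt, the mitochondrial RNA polymerase, had 40.8 ± 1.18 CPM in Veh_Ctrl, 44.7 ± 0.418 in THC_Ctrl, 43.0 ± 2.60 in Veh_LPS and 37.2 ± 13.6 in THC_LPS (SD, n = 3). Tfam, which packs mitochondrial DNA and helps start its transcription, had 36.0 ± 2.83, 34.9 ± 0.376, 31.7 ± 2.33 and 32.4 ± 4.16 CPM in the same order. Both genes overlapped between saline and LPS libraries after THC. Over the 24 genes of mitochondrial transcription and genome maintenance, the median log2 fold change under LPS was 0.003 after vehicle and -0.07 after THC. For 28 RNA processing and decay genes it was -0.10 and -0.04, and for 32 translation factors and tRNA synthetases -0.07 and -0.12.

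Under LPS after THC, most nuclear subunits of the same complexes had negative values in the fit of all libraries. The mitochondrial median was positive in that fit and negative without THC_LPS replicate 3, with the GC trend removed or by voom with sample weights. Medians of the nuclear lists under those settings were not computed, so the lists and the mitochondrial genes cannot be compared there. For the 36 nuclear subunits of complex I the median log2 fold change was -0.33, with 4 positive, and for the 34 of complexes III, IV and V it was -0.38, with 5 positive. The 76 mitochondrial ribosomal proteins had a median of -0.22 with 13 positive. At an unadjusted p under 0.05, 16 of the 36, 24 of the 34 and 23 of the 76 passed, where 19.4% of all tested genes did, and the smallest adjusted p of the 3 lists was 0.107. The summed level of the complex I subunits was 2285 to 2847 CPM in THC_Ctrl and 1866 to 2100 CPM in THC_LPS, with no overlap. That of complexes III, IV and V was 6060 to 7333 CPM and 4949 to 5464 CPM. The share of all genes lower without overlap is not given here, so these gaps cannot be set against it. After vehicle the medians were -0.09, -0.12 and -0.12, and no gene of the 3 lists passed at an unadjusted p under 0.05. Length correlations were -0.29 to 0.15 in the THC_Ctrl libraries and 0.09 to 0.33 in the THC_LPS libraries, and their part in these values was not tested.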

How the data were processed

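The authors deposited raw read counts by gene for each of 12 libraries, per the file headers, and all tests start from them. The deposited FPKM equalled reads divided by gene length and the library total, as checked on the values. 1 table holds an adjusted p-value from the authors, whose comparison the header does not name. STAR 2.5, HTSeq, DESeq2 and mm10 appear, without roles, per the submitters' processing notes. The sources used here do not give the library kit, the strandedness or the handling of multiply mapped reads. Tables were joined by gene ID, and a gene not listed was taken as 0 reads. Coordinates are as in the files and equal those of GENCODE M21 for all 13 mitochondrial genes. Copies were sought in annotated pseudogenes with blastn 2.17.0 (at least 40 bases at 90% identity). Hits on a single nuclear chromosome were left out, so a missing match means none on the others.

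edgeR 4.0.16 in R 4.3.3 fitted a mean per group to all 12 libraries, with TMM scaling, its default expression filter (17208 genes), robust quasi-likelihood dispersions, and p-values adjusted over all genes (Benjamini-Hochberg). An approximate SE of each log2 fold change was derived from its size and the square root of F. RPKM uses the library total. GC content was known for 98.7% of genes. Shares of the library were compared with exact 2-sided permutation tests. Alternative settings included DESeq2 1.42.0, weighted voom (limma 3.58.1), median-ratio scaling, scaling without the mitochondrial genes, other filters, only the groups compared, a replicate block, removal of GC or length trends (loess, span 0.5) and libraries left out. The procedure was tested on simulated counts. Same-numbered libraries of different groups had correlations of -0.16 to 0.10, so the numbers were not taken as pairs. Libraries of a group differed by more than sampling noise (smallest chi-square per degree of freedom 10.5). Every mitochondrial gene is reported. Polrmt and Tfam were named by rule, and further list members only if called. The genes, lists and tests were chosen with earlier results of these data known.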

Additional observations from a re-analysis of the deposited data

How the results depend on the processing

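The count of mitochondrial genes called was 0 in each comparison and stayed at 0 except as follows. For Veh_LPS against Veh_Ctrl it was 2 by voom with sample weights, where 10.8% of all genes were called, and 1 with the GC trend removed. For LPS averaged it was 2 by DESeq2 (4.17% of all genes), by voom (23.7%) and without the expression filter. It was 1 with the GC trend removed, with or without a replicate block. With single libraries left out it was 0 to 1 (1 without Veh_Ctrl replicate 3 and without THC_LPS replicate 1). mt-Nd6 was among the mitochondrial genes called every time and mt-Nd5 where there were 2. Calls over all genes under these settings are given below. With only the replicate number added as a block, which the libraries do not share beyond the number, 0 mitochondrial genes were called. Carried results were those of mt-Nd2, mt-Nd5 and mt-Nd6 at an unadjusted p under 0.05, settled after their values were seen. Over all members and alternatives 201 of 2064 fits turned sign and 13 gave a call. Of these calls 10 were for LPS averaged and 3 for Veh_LPS against Veh_Ctrl. The share of all genes called over the same fits was not computed, so the 13 cannot be set against it.

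The mitochondrial share kept its direction under other denominators, with the chromosome 1 copies added and on a log scale. Leaving out single libraries, the difference in percentage points ran from 0.386 to 1.51 for Veh_LPS against Veh_Ctrl, -0.386 to 1.55 for THC_LPS against THC_Ctrl, 0.886 to 1.38 for THC_Ctrl against Veh_Ctrl, -0.325 to 1.61 for THC_LPS against Veh_LPS, -1.47 to 0.470 for the interaction, 0.349 to 1.32 for LPS averaged and 0.409 to 1.38 for THC averaged. The interaction was positive without Veh_Ctrl replicate 2 (0.0312), Veh_LPS replicate 1 (0.470), THC_LPS replicate 1 (0.470) or THC_LPS replicate 2 (0.318). Without Veh_LPS replicate 2 and THC_LPS replicate 3 together, THC_LPS minus THC_Ctrl was -0.386 and THC_LPS minus Veh_LPS was -0.591. The cause was not tested.

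Calls over all genes moved as follows from 107 for Veh_LPS against Veh_Ctrl, 19 for THC_LPS against THC_Ctrl, 261 for LPS averaged and 0 in the others. DESeq2 called 216, 486 and 718, and 14 for THC_Ctrl against Veh_Ctrl, 2 for THC_LPS against Veh_LPS, 1 for the interaction and 11 for THC averaged. Voom called 1853, 990 and 4079, and 107, 2, 6 and 20. Without the expression filter 149 were called for THC_LPS against THC_Ctrl, 451 for LPS averaged, 2 for THC_Ctrl against Veh_Ctrl and 1 for THC averaged. The filter of 1 CPM in 3 libraries gave 12, and a fit of only the groups compared 2, for THC_LPS against THC_Ctrl, and the latter 9 for THC_Ctrl against Veh_Ctrl. With the GC trend removed the counts were 166, 90 and 961. With the replicate block added to that they were 54 for THC_LPS against THC_Ctrl, 616 for LPS averaged, 7 for THC_Ctrl against Veh_Ctrl, 2 for the interaction and 3 for THC averaged, and the replicate block alone gave 7 for THC_Ctrl against Veh_Ctrl. Without both libraries that stand apart, THC_Ctrl against Veh_Ctrl had 4 and THC averaged 2. With single libraries left out the counts ran from 33 to 197, 0 to 160 and 128 to 703, from 0 to 5 for THC_Ctrl against Veh_Ctrl and from 0 to 1 for the interaction. The rRNA share planned as a separate result was not run, because rRNA genes were not analysed here.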
